A study of Harpegnathos saltator with 14 samples.

Results

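Hatching in Harpegnathos saltator, a ponerine ant, was followed by setting instar 1 larvae (2 libraries) against embryos (2 libraries). These are 4 of the 14 libraries of a developmental series that also covers instar 4 larvae, early and late pupae, adult workers and males, with 2 libraries in each of its 7 groups. All are poly(A) RNA from whole bodies, with no treatment or genotype given. The labels give neither the age of the embryos and larvae, nor the number of animals per library, nor their colony, so a p-value here speaks of how far these libraries scatter, and that scatter may be purely technical. Expression was deposited as RPKM, reads scaled to the length of a gene and to the size of a library. Of 20755 gene models, 10665 reached an RPKM of 1 in at least 2 of the 4 libraries and were compared.

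Hatching ends embryogenesis, in which an insect embryo moves from maternally supplied transcripts to its own, multiplies its cells and lays down tissues, and begins a life of feeding and growth. The ant larva is legless and is fed by workers, and much of its body is gut, fat body, silk glands and cuticle. Harpegnathos workers hunt, and its larvae feed on prey brought to the nest. The deposited identifiers carry no gene names: 0 matched the 14329 genes of the reference table of assembly Hsal_v8.6. Neither the stages nor any tissue could therefore be checked against marker genes, and no role is assigned to any gene described here. In whole bodies, fewer cells of a type and less RNA per cell cannot be told apart.

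Reads in genes numbered 5484446 and 4521514 in the instar 1 libraries, against 5639028 and 7984170 in the embryo libraries. They were 38.1% and 31.7% of the reads behind the RPKM scale in larvae, against 38.0% and 38.4% in embryos, so instar 1 replicate 2 stood apart in this share. The 2 instar 1 libraries correlated at r = 0.935 across the tested genes on the log2(RPKM + 1) scale, and 125 genes lay at least 4-fold apart between them on that scale. The embryo libraries correlated at 0.850, with 489 genes at least 4-fold apart. Across stages r ran from 0.610 to 0.743, and was higher with embryo replicate 2 than with embryo replicate 1 for both instar 1 libraries. Genes are not independent replicates, and these correlations describe the libraries only. Of the 338 genes at least 4-fold higher in embryo replicate 2 than in replicate 1, the larval mean lay above the embryo midpoint for 123 (36.4%). Of the 151 genes at least 4-fold higher in replicate 1 it did so for 7 (4.64%). Over all 10665 tested genes, the mean on the log2(RPKM + 1) scale was higher in larvae than in embryos for 2644. Larvae lay above both embryo libraries in 90 of the 338 and below both in 148, and in 1 and 109 of the 151. Over all 10665 tested genes, both larval libraries lay above both embryo libraries in 13.8% and below both in 53.5%. The labels do not say in what the embryo libraries differed.

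Expression was concentrated in fewer genes in instar 1 larvae than in embryos. The 10 most abundant genes held 18.0% and 27.4% of the summed RPKM in the instar 1 libraries, against 8.39% and 6.85% in the embryo libraries. The number of genes that together held 50% of the summed RPKM was 135 and 70 in instar 1 larvae, against 636 and 546 in embryos. Both larval libraries lay apart from both embryo libraries in each measure. Among all 14 libraries the embryo libraries had the lowest shares in their 10 most abundant genes. The instar 1 shares lay below those of instar 4 larvae (48.9% and 49.8%) and above that of male replicate 1 (9.73%). Counted by recovered reads, which favour long genes, the 10 most abundant genes held 13.8% and 16.2% in larvae, against 8.80% and 7.11% in embryos, so that the difference of the means was 7.04 percentage points, beside 15.1 by RPKM. Without instar 1 replicate 2, the library with the lower share of reads in genes, the difference by RPKM was 10.4 points. With 2 libraries against 2, the exact two-sided permutation test gave p = 0.333 for both RPKM measures, which is the smallest value it can give.

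**Figure D1:**
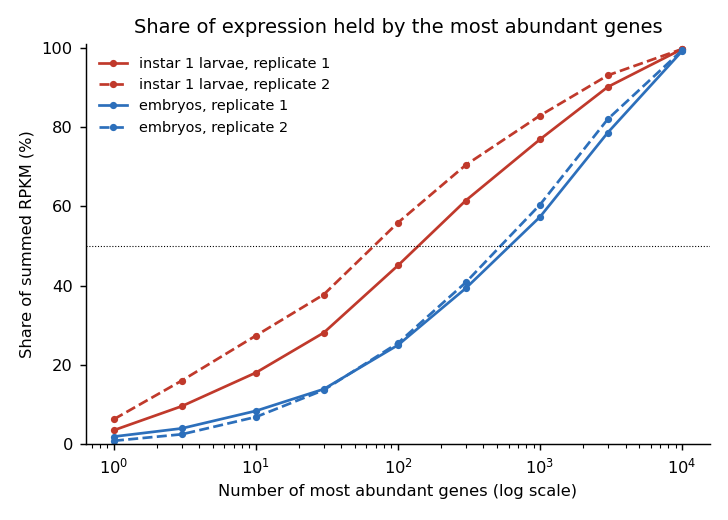
Share of a library's summed RPKM (vertical axis, %) held by its most abundant genes (horizontal axis, number of genes, log scale) in the 2 instar 1 libraries (red) and the 2 embryo libraries (blue). Both red curves lie above both blue curves: the first 100 genes held 45.1% and 55.9% in larvae, against 25.0% and 25.5% in embryos.

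The 10 most abundant genes of the larva were nearly all others than those of the embryo, while over the first 100 genes the stages shared more than 50. A level of 1000 RPKM was reached by 59 and 70 genes in the instar 1 libraries, against 13 and 18 genes in the embryo libraries, while 100 RPKM was reached by 498 and 420 genes in larvae and by 406 and 531 in embryos. The larval libraries shared 6 of their 10 most abundant genes with each other, and each shared at most 1 with an embryo library. The embryo libraries shared 7 of their 10. Over the 100 most abundant genes the larval libraries shared 86 and the embryo libraries 74, and a larval and an embryo library shared 52 to 58. Of the 63 tested genes with a larval mean of at least 1000 RPKM, 7 also reached this level in the embryo and 6 stood below 10 RPKM there. Of the 18 genes with an embryo mean of at least 1000 RPKM, 7 reached it in the larva and 5 stood below 10 RPKM.

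In deposited RPKM the typical gene was lower in the larva, a direction that depended on the scaling. The median tested gene stood at 6.44 and 4.43 RPKM in the instar 1 libraries, against 10.9 and 9.90 RPKM in the embryo libraries. On the log2(RPKM + 1) scale, on which all differences below are given, the median difference of all tested genes was -0.67 (instar 1 minus embryo). Between single libraries it ran from -0.40 to -0.90. RPKM is relative to the reads of its library, so genes cannot move independently of each other. The median difference became 0.17 when the libraries were set to a common median, and -0.020 under quantile scaling. Both bring the library medians together, so a value near 0 follows from the scaling itself. The median difference was -1.06 when each library was scaled to the same summed expression (the TPM scale).

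Differences were tested with limma, a linear model that shares information on the spread between genes, fitted to all 14 libraries, and genes were called at a Benjamini-Hochberg adjusted p below 0.05. Of the 10665 genes, 3728 were called (35%): 560 rose in instar 1 larvae (5.25%) and 3168 fell (29.7%). In all of them the larval and the embryo libraries did not overlap, as was so for 13.8% (higher) and 53.5% (lower) of all genes tested. Falls also outnumbered rises on the TPM scale, with 411 higher (3.85%) and 3917 lower (36.7%), and under quantile scaling, with 993 (9.31%) and 1215 (11.4%). Median scaling turned the majority round, with 1765 higher (16.5%) and 1116 lower (10.5%).

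The number of calls rested on single libraries. Leaving out instar 1 replicate 2 gave 275 higher and 888 lower, and leaving out embryo replicate 1 gave 319 and 2032. A fit of only the 4 libraries gave 395 higher (3.7%) and 1305 lower (12.2%), and with median scaling 764 (7.16%) and 257 (2.41%). The embryo libraries lay at least 4-fold apart in 58 of the 560 genes and in 181 of the 3168, beside 489 of all 10665 tested (4.59%).

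Genes called in the same direction under all 4 scalings numbered 366 higher (3.43%) and 985 lower (9.24%). The median log2 difference was 2.53 among the 366 and -2.36 among the 985, beside -0.67 over all tested genes. No gene called on the deposited scale was called in the opposite direction under median scaling, which could hardly have shown one. It moves all log2 differences up alike, from a median of -0.67 to 0.17, and the smallest called fall was -0.739. The sets held 290 higher and 177 lower genes with only the 4 libraries in the fit, of which 235 and 169 were among the 366 and 985. Without instar 1 replicate 2 they were 146 and 241, and without embryo replicate 1 they were 206 and 848.

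**Figure D2:**
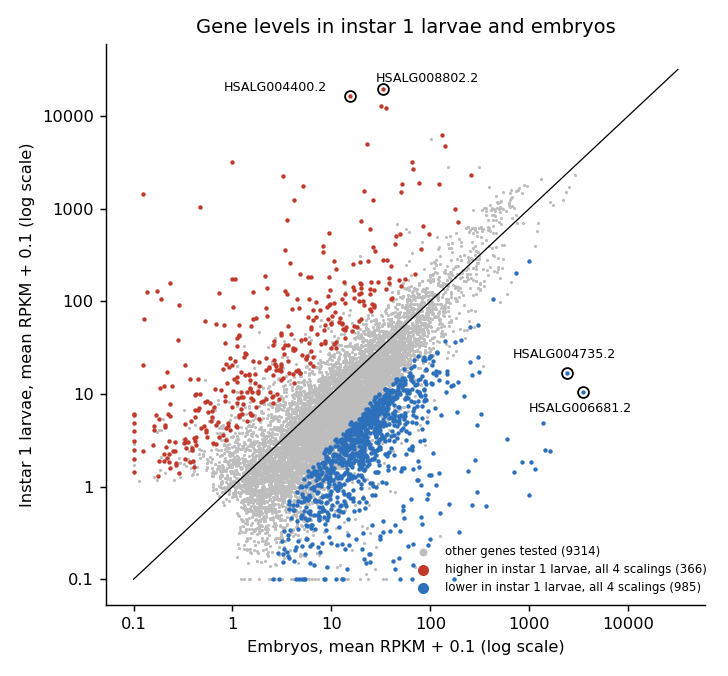
Mean RPKM plus 0.1 in instar 1 larvae (vertical axis, log scale) against embryos (horizontal axis, log scale) for the 10665 genes tested, with the line of equal levels. Red marks the 366 genes called higher and blue the 985 called lower in larvae under all 4 scalings, and open circles mark the 4 genes described by identifier, of which 2 lie far above and 2 far below the line.

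On the deposited scale 79 called genes rose at least 16-fold (0.741%) and 82 fell by as much (0.769%). The 79 genes held 27.2% and 35.6% of the summed RPKM in the instar 1 libraries, against 0.122% and 0.892% in the embryo libraries. The 82 genes held 0.0513% and 0.0317% in larvae, against 6.65% and 7.97% in embryos. The balance depended on the scaling, with 130 higher and 44 lower under median scaling, 77 and 44 under quantile scaling, and 89 and 202 on the TPM scale. It also depended on the treatment of low values, with 139 higher and 270 lower on the log2(RPKM + 0.1) scale and 146 and 285 with limma-voom on recovered reads. Of the 79 genes, 79, 72 and 75 were also called at this size under the 3 other scalings, in the order given, and of the 82, 44, 44 and 82. Median scaling moves all log2 differences up and the TPM scale moves the falls further down. The 79 rises under the first and the 82 falls under the second therefore kept this size by construction.

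The genes with the highest larval and the highest embryonic means among those changed at least 16-fold are given in full. HSALG008802.2, with a recovered length of 387 bases, stood at 13725 and 24881 RPKM in the instar 1 libraries, against 7.31 and 59.2 RPKM in the embryo libraries. It was the most abundant gene in both larval libraries, with 3.51% and 6.29% of their summed RPKM. Its level in embryo replicate 2 was above that in embryo replicate 1, and far below both larval values. The log2 difference was 9.69 ± 1.32 (SE; limma, adjusted p = 0.000679), and over the 20 alternatives adjusted p ran from 1.12e-05 to 0.0138. It stood at 14.9 and 12.2 RPKM in instar 4 larvae and at 0.613 and 67.2 RPKM in early pupae, and between 0 and 0.908 RPKM in late pupae, workers and males. No later library came near the instar 1 level.

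HSALG004400.2, with a recovered length of 210 bases, stood at 10153 and 22635 RPKM in the instar 1 libraries, against 6.74 and 23.8 RPKM in the embryo libraries. Its log2 difference was 10.09 ± 1.59 (SE; limma, adjusted p = 0.00146), with adjusted p between 1.67e-06 and 0.0235 over the 20 alternatives. Unlike the first gene it was also abundant at other stages. Levels were 1051 and 1482 RPKM in instar 4 larvae, 7.06 and 1200 in early pupae, 3.14 and 1.55 in late pupae, 684 and 790 in workers and 1866 and 2494 in males. The early pupa libraries lay far apart, and both late pupa libraries were low.

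HSALG006681.2, with a recovered length of 780 bases, stood at 16.5 and 4.31 RPKM in the instar 1 libraries, against 5643 and 1375 RPKM in the embryo libraries. It was the most abundant gene of embryo replicate 1 and the 16th of embryo replicate 2. The groups did not overlap, although the embryo libraries lay about as far apart as the larval ones. Its log2 difference was -8.18 ± 0.88 (SE; limma, adjusted p = 0.000143), with adjusted p between 0.0001 and 0.0044 over the 20 alternatives. Levels ran from 0 to 15.8 RPKM in the 10 later libraries, and both male libraries held 0 reads.

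HSALG004735.2, with a recovered length of 1230 bases, stood at 19.1 and 14.5 RPKM in the instar 1 libraries, against 2998 and 1772 RPKM in the embryo libraries. Its log2 difference was -7.03 ± 1.65 (SE; limma, adjusted p = 0.00883). The call was lost without instar 1 replicate 2 (limma, adjusted p = 0.0727) and without embryo replicate 1 (adjusted p = 0.0509), and with only the 4 libraries the adjusted p was 5.58e-05. The gene returned in pupae, unevenly between libraries: 189 and 0.749 RPKM in early pupae and 11.9 and 192 RPKM in late pupae. In instar 4 larvae, workers and males it lay between 0.228 and 3.77 RPKM.

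**Figure D3:**
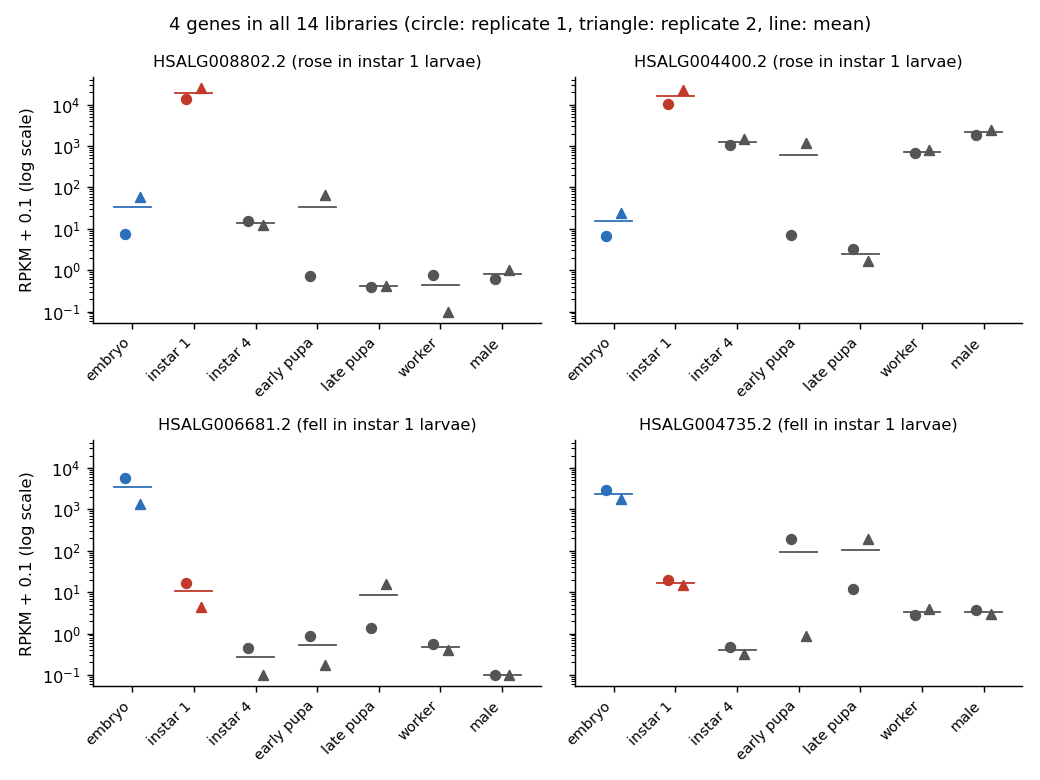
RPKM plus 0.1 (vertical axis, log scale) of the 4 genes in all 14 libraries, in order of development, with males last; a circle is replicate 1, a triangle replicate 2 and a line the group mean. The upper 2 genes peak in instar 1 larvae and the lower 2 in embryos, and the early pupa libraries lie apart for each of the 4 genes.

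Genes read in 1 stage and close to absent in the other were counted by fixed limits, which also set how many there were. An RPKM of at least 1 in both larval libraries with less than 0.1 in both embryo libraries was found for 19 genes, and the reverse for 60. With less than 0.5 RPKM as the limit of absence there were 104 and 336, and with at least 5 RPKM as the limit of presence 4 and 6. Leaving out 1 library, which relaxes a limit, gave 41 and 202 without instar 1 replicate 1, 28 and 118 without instar 1 replicate 2, 33 and 181 without embryo replicate 1 and 102 and 132 without embryo replicate 2. For 11 of the 19 and 42 of the 60 the other stage held no read at all. These genes were mostly of low level, with a median of 2.99 RPKM in larvae for the 19 and 6.02 RPKM in embryos for the 60, and for 24 of the 60 the embryo libraries lay at least 4-fold apart, in 23 of these with replicate 2 the higher. Of the 60, 40 stayed below 1 RPKM in all 5 other groups, as did 3 of the 19. In each of the 4 libraries 1 read in a gene of typical length was worth 0.0439 to 0.0640 RPKM, so absence means at most a few reads, for which 3 reads correspond to 0.132 to 0.192 RPKM.

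The later stages entered the choice of the changed genes only through the common estimate of the spread and the scalings. The 366 genes called higher under all scalings had medians of 7.58 RPKM in instar 4 larvae, 6.05 in early pupae, 4.33 in late pupae, 18.2 in workers and 17.1 in males. Over all tested genes the medians of the same groups were 3.51, 6.08, 5.21, 5.02 and 5.24 RPKM. The set thus stood above all tested genes in instar 4 larvae and in both adult groups, in each library. In late pupae it stood below them only in replicate 2 (3.70 against 5.41 RPKM). In late pupa replicate 1 it stood slightly above them (4.91 against 4.73 RPKM). Of the 349 genes that reached 1 RPKM in at least 1 of the 5 later groups, 36.7% were highest in workers, compared with 15.4% of all tested genes. The share was 36.7% against 14.6% after median scaling, and stayed between 36.8% and 37.4% with either early pupa library alone or with neither. Males showed no such excess: 33.5% of the 349 were highest in them, compared with 34.7% of all tested genes. After median scaling these shares of males were 28.7% and 32.9%.

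The 985 genes called lower had medians of 3.63 RPKM in instar 4 larvae, 7.38 in early pupae, 5.98 in late pupae, 4.80 in workers and 3.47 in males. All 5 lay below the embryo median of 20.9 RPKM by which, among others, these genes were chosen. Among 915 of them, 56.2% were highest in early pupae, compared with 30.7% of all tested genes, and 30.4% against 12.3% after median scaling. This share rested on early pupa replicate 1: it was 69.9% with that library alone, beside 45.9% of all tested genes, and 28.4% with replicate 2 alone, beside 15.4%. Without early pupae, 50.9% were highest in late pupae, compared with 30.9% of all tested genes. With early pupa replicate 2 alone, late pupae (34.5%, beside 24.9% of all tested genes) stood ahead of early pupae.

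**Figure D4:**
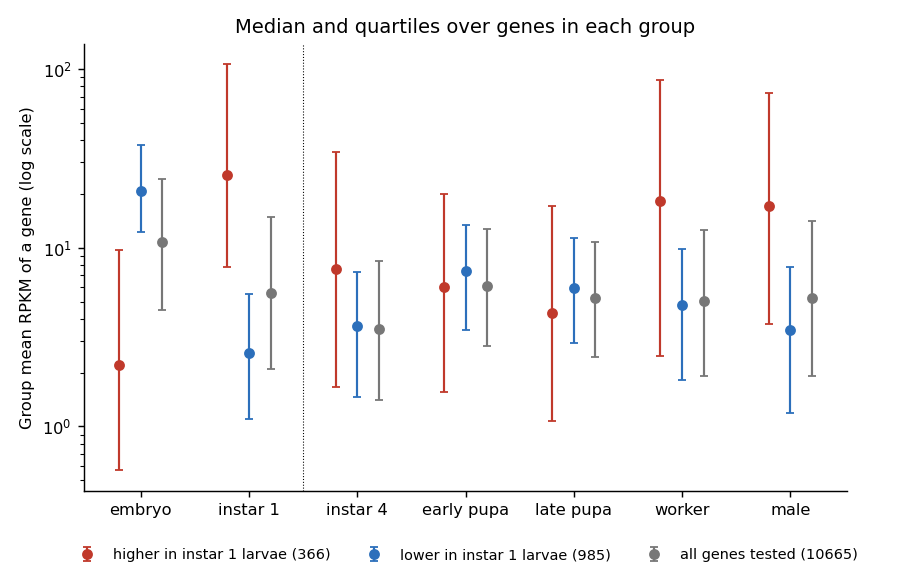
Median (point) and quartiles (bars) over genes of the group mean RPKM (vertical axis, log scale) in the 7 groups, for the 366 genes higher and the 985 genes lower in instar 1 larvae under all 4 scalings and for all 10665 genes tested. The dotted line separates the 2 groups that chose the genes from the 5 others, where the first set has medians of 18.2 RPKM in workers and 17.1 in males and the second 7.38 in early pupae.

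Over all tested HSALG genes, the difference was lower in longer genes. The RPKM steps allowed the length of each gene to be recovered, and in 97.7% of the tested HSALG genes it was a multiple of 3, so these are taken as coding lengths. The median length was 867 bases for HSALG genes called higher under all scalings, 1617 bases for those called lower and 1095 bases for all tested. Among genes with at least 1000 RPKM in larvae it was 525 bases, against 802.5 bases among those with this level in embryos. With the genes in 4 classes of like number by length, the median log2 difference was -0.36 from 50 to 588 bases, -0.50 from 591 to 1095, -0.71 from 1098 to 1911 and -1.07 above that. On the deposited scale 83 of 2585 genes of the longest class rose (3.21%) and 1201 fell (46.5%). In the shortest 200 of 2595 rose (7.71%) and 505 fell (19.5%), beside 5.23% and 30.1% of all tested HSALG genes. Under median scaling 223 rose and 467 fell in the longest class, and 563 rose and 167 fell in the shortest. Called under all 4 scalings were 2.17% higher and 15.3% lower in the longest class, and 4.43% and 5.78% in the shortest. Over all 10665 genes these shares were 3.43% and 9.24%. The gradient kept its order under quantile scaling, from 0.22 to -0.33, which could have changed it. Median scaling (0.48 to -0.24) moves all log2 differences alike, so the order there was fixed in advance. The TPM scale (-0.73 to -1.52) applies a single factor to each library and could hardly have changed the order. Within classes of mean level over the 4 libraries, which rest on the same values as the difference, the order was kept from 5 to 20 RPKM (-0.46, -0.59, -0.85 and -1.22) and from 20 to 100 RPKM (-0.12, -0.38, -0.62 and -1.12). Below 5 RPKM the medians were -0.52, -0.59, -0.59 and -0.82, nearly level over the first 3 classes. At 100 RPKM and above they were 0.76, 0.24, -0.39 and -0.011, and the order was not kept in the longest class, which held 19 genes there.

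Length also separated the larval replicates from each other. Between instar 1 replicate 2 and replicate 1 the median log2 difference was -0.09 in the shortest class and -0.52 in the longest. Between embryo replicate 2 and replicate 1 it was -0.11 and -0.23, with values near 0 in the classes between. From the shortest to the longest class, instar 1 replicate 1 ran from -0.38 to -0.92 against embryo replicate 1 and from -0.19 to -0.66 against embryo replicate 2. Instar 1 replicate 2 ran from -0.47 to -1.44 and from -0.32 to -1.20. Differences in RNA integrity or fragment length between libraries were not tested, and the part of the gradient that belongs to the stage cannot be told apart from that of the libraries.

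**Figure D5:**
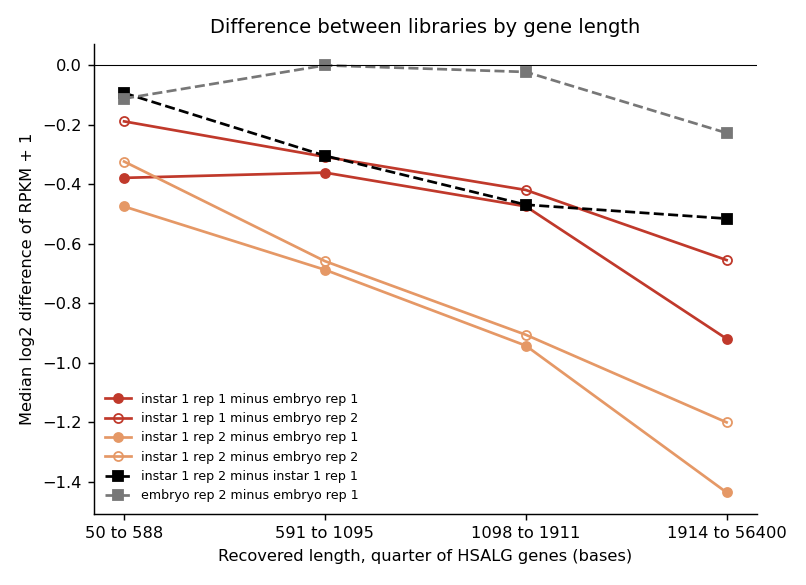
Median log2 difference of RPKM + 1 between 2 libraries (vertical axis) in 4 classes of HSALG genes by recovered length (horizontal axis, bases), for the 4 pairs of an instar 1 and an embryo library (solid lines) and the 2 pairs of replicates (dashed lines). All 4 solid lines are lowest in the longest class, and the dashed line of the larval replicates falls as well, to -0.52.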

How the data were processed

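The deposited values are RPKM, computed by the authors. Per the submitters' processing notes, STAR 2.5.0b and DESeq2 were among the tools. For the read counter, the genome build, the gene lengths and the meaning of replicate numbers, the answer is not given in the sources used here. Groups came from the sample titles and columns from the second header line, with 0 columns unused.

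For each gene a whole length was sought that turned its RPKM into whole reads in all 14 libraries (relative tolerance 1e-05). It was found for 18543 of 18543 genes above 0. The floor of 3 reads covers counting error only. The ± values are limma standard errors, which rest on the scatter between libraries.

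The model was limma 3.58.1 (R 4.3.3) on log2(RPKM + 1), with the variance following the level, all 14 libraries and no block, for genes that reached RPKM 1 in 2 of the 4 libraries. This log2 scale understates changes of low genes, and the spread is shared by groups whose replicates differ in closeness. P-values are two-sided. Named genes were the 2 per direction with the highest mean in the higher group among genes called, not overlapping and changed at least 16-fold. Members, rule and lists were chosen with earlier results of these data known. The 4 scalings are deposited RPKM, a common median, quantile scaling and the TPM scale, and the set called under all of them was added after seeing the data. Other steps used scipy 1.17.1, pandas 2.3.3, numpy 2.4.6 and matplotlib 3.10.9 under Python 3.11.15.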

Additional observations from a re-analysis of the deposited data

How the results depend on the processing

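Of 80 values of the 4 named genes under 20 alternatives, 78 kept direction and call, 2 lost the call (both of HSALG004735.2, at -6.85 and -6.65) and 0 reversed. The genes were chosen for large changes in these data, and several alternatives alter the test but not the log2 difference. A reversal was thus hardly possible. Counts are given as all calls, higher and lower, beside 3728, 560 and 3168. Median scaling gave 1765 higher and 1116 lower, and quantile scaling 2208, 993 and 1215. With only the 4 libraries there were 1700 calls, 1305 of them lower, with median scaling added 1021 and 257, and with library weights 2268, 332 and 1936. The median difference of all genes was -0.30 with no filter and -1.06 on the TPM scale. It was -0.020 under quantile scaling and 0.17 under median scaling, which both bring the library medians together and so leave values near 0. The fit of the 4 libraries alone used the same median-scaled values, so its 0.17 is no second result. Leaving out 1 library gave 1163 to 3776 calls, 275 to 462 higher and 888 to 3346 lower, the lowest each without instar 1 replicate 2. The sets under all 4 scalings ran from 146 to 320 higher and from 241 to 857 lower, and the lower set was 177 with only the 4 libraries. A lone library was given the spread of the remaining groups. The limma-voom test on recovered reads, whole in 100% of the genes above 0, gave 3442 calls, 511 higher and 2931 lower.

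By recovered reads, the 10 most abundant genes held 7.04 percentage points more in larvae than in embryos, beside 15.1 by RPKM, and the number of genes holding 50% differed by -584, beside -488.5. Genes on in the larva only were 11 with 0 in the embryo, 104 below 0.5 RPKM and 4 at 5 RPKM or more, and 28 to 102 without 1 library. Genes on in the embryo only were 336, 6 and, on the TPM scale, 185, and 118 to 202 without 1 library. Absence is limited by depth.

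Deviations of same-numbered libraries correlated at 0.03 between embryos and instar 1 larvae, and from -0.26 to 0.17 over all 21 group pairs, and libraries were therefore not treated as paired. A replicate block gave 3626 calls, 532 higher and 3094 lower, and with only the 4 libraries 2028, of which 1623 lower. The causes of these changes were not tested, except that fewer libraries or genes enter some fits.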

Other observations

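XLOC loci, whose identifiers differ in form from the HSALG genes, made up 315 of the 10665 genes tested. Of these, 19 rose (6.03%) and 50 fell (15.9%) in instar 1 larvae, beside 5.23% and 30.1% of the 10350 HSALG genes. Their median log2 difference was -0.38, against -0.68 in HSALG genes, and the order was the same under quantile scaling (0.33 and -0.030). Median scaling (0.46 and 0.16) moves all log2 differences alike and could not change the order. The TPM scale (-0.75 and -1.07) applies a single factor to each library and could hardly have done so. The difference between the classes was not tested. Under all 4 scalings 13 of the 315 XLOC loci were called higher and 18 lower, beside 366 (3.43%) and 985 (9.24%) of all 10665 genes tested. XLOC loci had a lower median level, at 5.10 RPKM against 9.06 RPKM over the 4 libraries.

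Among the 79 genes that rose at least 16-fold, the larval median was 251 RPKM, against 4.10 RPKM in embryos. In the later groups it was 49.4 RPKM in instar 4 larvae, 13.6 in early pupae, 4.20 in late pupae, 42.7 in workers and 25.6 in males. Late pupae held 26 of the 79 below 1 RPKM, and instar 4 larvae 10. Among the 82 genes that fell at least 16-fold, the median was 0.765 RPKM in instar 1 larvae, against 80.9 RPKM in embryos, and in the later groups it lay between 0.226 RPKM in males and 1.64 RPKM in early pupae. At least 10 RPKM was reached by 20 of the 82 in late pupae and by 18 in early pupae, and by 7 in instar 4 larvae.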
